A study of Mus musculus with 12 samples.

Results

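Methionine, one-carbon and choline metabolism was followed in mouse liver through 10 enzyme genes, Mat1a, Gnmt, Ahcy, Bhmt, Cbs, Cth, Pemt, Shmt1, Mthfd1 and Phgdh. They were taken by gene symbol, for their place in these pathways, from the 56065 genes in the deposited transcript tables, and the reads of all transcripts of a symbol were summed. Of the 10 genes, 9 had enough reads for a test, among 13631 genes tested in all, and Phgdh did not. The enzymes were compared between 3 groups of 4 liver libraries each. In the MD+CA group, mice ate the MASH diet (MD, in which fat supplied 40 and fructose 20 kcal% and cholesterol made up 2%) and received cinnabarinic acid, a tryptophan metabolite known as an agonist of the aryl hydrocarbon receptor AhR, by intraperitoneal injection of 12 mg per kg of body weight in 0.2% DMSO 3 times a week. The MD group ate the same diet and was injected on the same schedule with the DMSO and saline vehicle. The CD group ate a control diet in which fat supplied 10 kcal%, matched for sucrose, and the labels do not say whether it was injected. All 3 groups carried floxed AhR alleles (AhR fl/fl), with no Cre named in the labels, and started at 8 weeks of age for 20 weeks of diet. MASH stands for metabolic dysfunction-associated steatohepatitis, and the diet is a model of that disease. The labels number the libraries within a group but do not say outright that each is a separate mouse, so p-values measure the spread between these libraries.

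In the methionine cycle of the liver, methionine is turned into S-adenosylmethionine (SAM), the methyl donor of most methylation reactions, and the product left after methyl transfer is split into homocysteine and adenosine. Homocysteine is either methylated back to methionine, with betaine or a folate as the donor, or drawn off through transsulfuration to cysteine. The cycle is tied to choline, since betaine is made by choline oxidation and the liver makes phosphatidylcholine by methylating phosphatidylethanolamine with SAM, and to the folate cycle, which passes single carbons from serine.

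The libraries held between 9089586 and 14492587 reads assigned to transcripts. Mitochondrially encoded transcripts took 4.97 to 7.94% of reads in MD+CA libraries, 6.16 to 17.5% in MD libraries, with the highest value in MD library 2, and 5.72 to 6.63% in CD libraries. The 8 hepatocyte markers had a summed level of 50907 to 69501 CPM in MD+CA, 38299 to 65952 CPM in MD and 57818 to 73413 CPM in CD libraries. CPM values, here and below, are read counts scaled for library size with TMM factors. All libraries are labelled male. They held 5122 to 12865 reads of Xist, the RNA of the inactive X chromosome, and no read of the Y-linked genes Ddx3y, Kdm5d, Uty and Eif2s3y, which allows at most 0.203 to 0.380 CPM by library (3 counts, counting error only). These values go against the label in all 3 groups alike.

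Promoter sequences were matched by symbol in RefSeq annotation of the build GRCm38.p6, from 250 bases before to 50 bases after the gene start. They were found for 8 of the 10 genes, with a pair of starts for Pemt, and Mat1a and Cth had no entry. The expression tables were made with GRCm39, so these positions belong to the reference only. The promoters shown are those of Cbs, the only enzyme gene past the edgeR threshold in any comparison, of Gnmt, which held the most copies of the AhR core, and of Ahcy, whose libraries did not overlap between MD+CA and MD. They lie at chr17:31637156-31637455, chr17:46729116-46729415 and chr2:155074448-155074747, all on the minus strand. Capitals mark the E-box CACGTG in Cbs and the AhR core GCGTG, on either strand, in Gnmt and Ahcy.
Cbs promoter: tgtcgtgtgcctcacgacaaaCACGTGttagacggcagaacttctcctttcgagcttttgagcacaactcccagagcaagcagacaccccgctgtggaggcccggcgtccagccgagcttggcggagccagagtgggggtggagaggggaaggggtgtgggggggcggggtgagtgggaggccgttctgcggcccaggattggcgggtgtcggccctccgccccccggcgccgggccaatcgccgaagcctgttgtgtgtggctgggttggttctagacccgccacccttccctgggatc
Gnmt promoter: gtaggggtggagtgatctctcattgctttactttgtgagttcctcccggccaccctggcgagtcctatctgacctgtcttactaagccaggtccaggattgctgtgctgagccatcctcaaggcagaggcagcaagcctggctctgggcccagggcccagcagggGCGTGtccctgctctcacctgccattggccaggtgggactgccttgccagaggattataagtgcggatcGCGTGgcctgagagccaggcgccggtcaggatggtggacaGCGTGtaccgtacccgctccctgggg
Ahcy promoter: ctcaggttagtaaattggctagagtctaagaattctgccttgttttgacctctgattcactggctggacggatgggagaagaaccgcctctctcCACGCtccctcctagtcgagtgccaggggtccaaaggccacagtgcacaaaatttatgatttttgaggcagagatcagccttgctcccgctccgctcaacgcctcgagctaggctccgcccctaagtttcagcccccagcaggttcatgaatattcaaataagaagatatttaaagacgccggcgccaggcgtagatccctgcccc

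The E-box CACGTG, bound by basic helix-loop-helix factors, was present in 7.15% of all 32851 promoters and, among the 9 promoters of these enzymes, only in that of Cbs, 229 bases before the start. The AhR core GCGTG, searched on both strands, was present in 32.4% of all promoters and in 5 of the 9 here, those of Ahcy, Gnmt, Mthfd1, Phgdh and Shmt1. Gnmt had 3 copies, beginning 85 and 16 bases before and 24 bases after the start. The ROR core AAGGTCA was present in 4.72% of all promoters and, here, with 2 copies in Bhmt. The ATF4 composite motif TGATGNAA (3.97% of all promoters) and the D-box TTATGNAA (3.38%) had no match in the 9 promoters. A match is a run of letters in these windows and does not show binding.

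Per length of transcript, the enzymes spanned a wide range of levels in liver. On the TPM scale, which divides reads by transcript length within a library, Bhmt averaged 875 ± 301 TPM over the 12 libraries (SD), Mat1a 788 ± 143 TPM, Gnmt 783 ± 295 TPM and Ahcy 557 ± 134 TPM. Bhmt stood above 99.01% of the genes tested. These 4 enzymes of the methionine cycle did not separate from their neighbours in the order, since the library values of Bhmt, Mat1a, Gnmt and Ahcy overlapped. Cth followed at 409 ± 134 TPM, and its lowest library (254 TPM) lay above the highest Pemt library (231 TPM). Pemt averaged 171 ± 38.2 TPM, Shmt1 157 ± 21.96 TPM and Cbs 135 ± 61.9 TPM, also with overlapping libraries. Mthfd1 averaged 72.0 ± 20.0 TPM. Phgdh was lowest at 0.205 TPM. Cbs varied most across libraries among the tested enzymes, with a coefficient of variation of 45.9%, and Shmt1 varied least, at 14.02%. The highest Cbs library (MD+CA 1) was 3.37 times the lowest (MD 4) on the CPM scale.

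**Figure D1:**
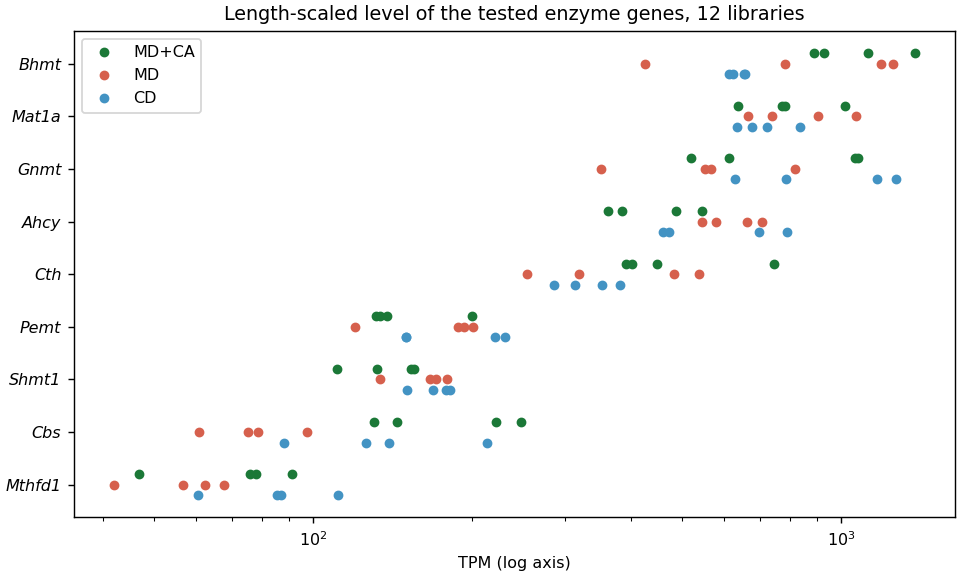
Level of the 9 tested enzyme genes in TPM on a log axis, with 1 point per library and a row for each group (MD+CA above MD above CD). The genes run from Bhmt, with a mean of 875 TPM over the 12 libraries, to Mthfd1, with 72.0 TPM, and the Cbs libraries of MD lie below those of MD+CA.

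Cbs, which encodes the enzyme that commits homocysteine to transsulfuration, rose in MD+CA relative to MD livers by a log2 fold change of 1.10 ± 0.26 (SE), or 2.15-fold (edgeR quasi-likelihood test, adjusted p = 0.0371 over all genes tested). It was the only one of the 9 tested enzyme genes past an adjusted p of 0.05 in this comparison, in which 2.71% of all genes passed and 1.06% passed as higher. No enzyme gene passed in MD against CD, where 0.0880% of all genes did, or in MD+CA against CD, where 0.528% did. At an unadjusted p under 0.05, edgeR gave 2 of 9 enzyme genes in MD+CA against MD (Cbs and Ahcy, against 23.2% of all genes), 3 of 9 in MD against CD (Bhmt, Gnmt and Cbs, against 19.9%) and 1 of 9 in MD+CA against CD (Bhmt, against 10.5%). Beside the shares of all genes, such counts in a list of 9 do not set these enzymes apart. DESeq2 called Cbs and Ahcy in MD+CA against MD, where it called 1214 of all 13631 genes. It called no enzyme gene in MD against CD (629 of all genes) or MD+CA against CD (334). limma voom called Bhmt in MD against CD (log2 fold change 0.86, adjusted p = 0.0411), where it called 374 of all 13631 genes. It called Cbs in MD+CA against MD (408 of all genes) and no enzyme gene in MD+CA against CD (191). Both tools called more genes than edgeR in every comparison, where edgeR called 369 in MD+CA against MD, 12 in MD against CD and 72 in MD+CA against CD.

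The median log2 fold change of the 9 enzyme genes was 0.09 in MD+CA against MD, 0.10 in MD against CD and -0.22 in MD+CA against CD, beside medians of -0.0035, 0.04 and 0.02 over all genes tested. The libraries of MD+CA and MD did not overlap for Cbs (higher) and Ahcy (lower), a state found for 10.2% of all genes. Those of MD+CA and CD did not overlap for Bhmt and Cth, both higher, beside 3.48% of all genes higher and 6.40% in either direction. Between MD and CD the libraries of all 9 enzyme genes overlapped, against 13.1% of all genes without overlap. MD+CA against MD and MD against CD share the MD libraries, and MD+CA against CD shares a group with each.

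**Figure D2:**
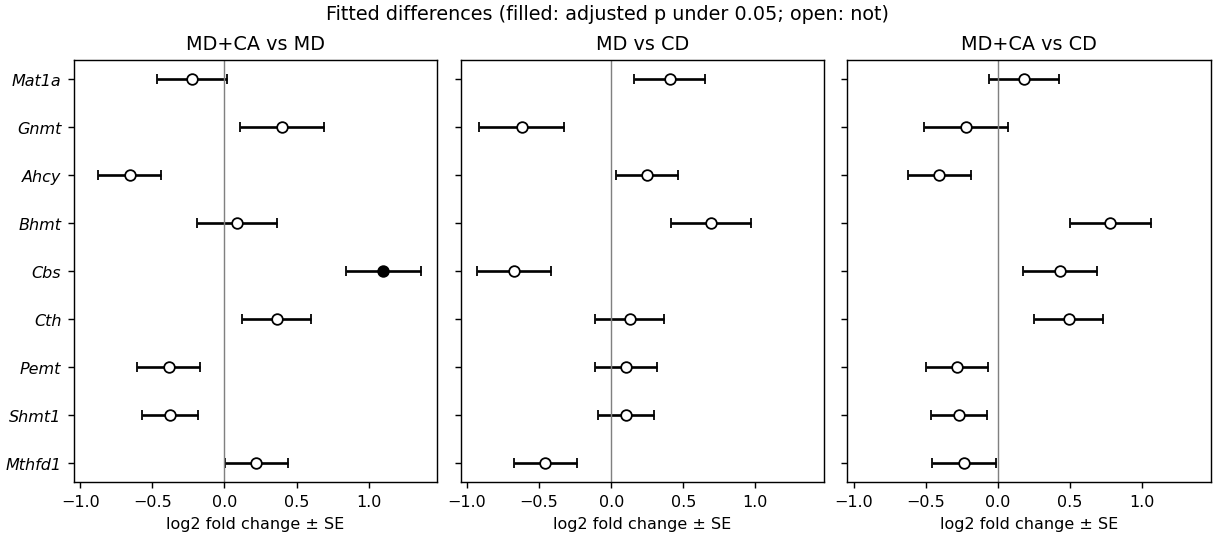
Log2 fold change (points) and standard error (bars) of the 9 tested enzyme genes from the edgeR model, in MD+CA against MD (left), MD against CD (middle) and MD+CA against CD (right). The only filled point, for an adjusted p under 0.05, is Cbs in MD+CA against MD at 1.10.

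Among the genes of SAM formation and use, Mat1a, Gnmt and Ahcy differed in pattern and none passed the test. Mat1a encodes the liver form of methionine adenosyltransferase, which makes SAM. Its level was 2006, 1675, 3148 and 1920 CPM in MD+CA libraries 1 to 4, 2201, 2822, 2917 and 2274 CPM in MD libraries 1 to 4, and 1637, 1811, 2006 and 2261 CPM in CD libraries 1 to 4. The MD+CA group held both the highest and, apart from CD library 1, the lowest library, and all groups overlapped. The log2 fold change was -0.22 in MD+CA against MD (adjusted p = 0.608), 0.41 in MD against CD (0.358) and 0.18 in MD+CA against CD (0.902), the last at -0.061 without MD+CA library 3.

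Gnmt encodes glycine N-methyltransferase, an abundant liver enzyme that uses up SAM by methylating glycine to sarcosine. Its level was 781, 401, 572 and 767 CPM in MD+CA libraries, 481, 291, 659 and 476 CPM in MD libraries and 799, 655, 527 and 955 CPM in CD libraries. The MD group held the lowest library (MD 2) but MD library 3 lay above 2 of the MD+CA libraries, so the groups overlapped. Gnmt averaged 630 ± 180 CPM in MD+CA, 477 ± 150 CPM in MD and 734 ± 185 CPM in CD (SD, n = 4 each). Its log2 fold change was 0.40 ± 0.29 in MD+CA against MD (adjusted p = 0.422), -0.62 ± 0.29 in MD against CD (0.250) and -0.22 ± 0.29 in MD+CA against CD (0.900).

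Ahcy encodes S-adenosylhomocysteine hydrolase, which removes the product that inhibits methyltransferases. It had 1067, 765, 891 and 936 CPM in MD+CA libraries, against 1445, 1317, 1505 and 1502 CPM in MD libraries. Every MD+CA library lay below every MD library, yet the difference missed the threshold in edgeR (quasi-likelihood test, log2 fold change -0.66 ± 0.22, adjusted p = 0.0979). DESeq2, which called 1214 of all 13631 genes in this comparison, placed the same difference past it (-0.65, adjusted p = 0.0122). CD libraries had 1260, 981, 1033 and 1580 CPM and overlapped both groups on MD diet, with log2 fold changes of 0.25 in MD against CD (adjusted p = 0.532) and -0.41 in MD+CA against CD (0.578). Read sums of Ahcy were not whole numbers in all 12 libraries (tolerance 0.01), as happens when reads are divided between similar genes. The listed gene Ahcyl held 0.335 to 0.942% as many reads as Ahcy.

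Bhmt, which encodes betaine-homocysteine methyltransferase and remethylates homocysteine with betaine from choline, was evenly expressed in CD livers and more variable on the MASH diet. It had 2764, 2210, 2866 and 3318 CPM in MD+CA libraries, 2489, 1319, 3189 and 3494 CPM in MD libraries and 1514, 1668, 1689 and 1628 CPM in CD libraries. All 4 MD+CA libraries and 3 of 4 MD libraries lay above every CD library, and MD library 2 lay below all of them. The group means were 2790 ± 455 CPM in MD+CA, 2623 ± 966 CPM in MD and 1625 ± 77.8 CPM in CD (SD, n = 4 each). The log2 fold change was 0.09 ± 0.28 in MD+CA against MD (adjusted p = 0.873), 0.69 ± 0.28 in MD against CD (0.194) and 0.78 ± 0.28 in MD+CA against CD (0.266). The difference between MD+CA and MD turned negative, at -0.13, without MD library 2. Read sums of Bhmt were not whole in all 12 libraries either, and its listed relatives held few reads beside it, with Bhmt1b at 0.184 to 1.21%, Bhmt-ps1 at up to 0.155% and Bhmt2 at 3.17 to 7.85% of the Bhmt reads.

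The transsulfuration pair showed the single call of the set. Cbs, cystathionine beta-synthase, had 426, 229, 312 and 339 CPM in MD+CA libraries 1 to 4, against 192, 136, 154 and 127 CPM in MD libraries 1 to 4. Every MD+CA library lay above every MD library. CD libraries had 342, 225, 166 and 239 CPM and overlapped both other groups. The means were 327 ± 81.0 CPM in MD+CA, 152 ± 29.2 CPM in MD and 243 ± 73.2 CPM in CD (SD, n = 4 each). Against CD, the log2 fold change of Cbs was -0.67 ± 0.26 in MD (adjusted p = 0.178) and 0.43 ± 0.26 in MD+CA (0.650). The call in MD+CA against MD was lost without CD library 4 (adjusted p = 0.0509), MD library 1 (0.0583), MD library 2 (0.0777), MD library 4 (0.0887), MD+CA library 1 (0.0508), MD+CA library 3 (0.0702) or MD+CA library 4 (0.0586), with log2 fold changes between 0.95 and 1.24 in the 12 fits that left out 1 library. It was also lost without the 3 libraries that correlated least with their own groups, MD+CA 3, MD 2 and CD 3 (log2 fold change 1.07, adjusted p = 0.123).

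Other gene lists also held calls between MD+CA and MD, in which 2.71% of all genes were called and 1.06% as higher. Of 10 Kupffer cell markers 4 were called higher in MD+CA than in MD, with a summed level of 393 to 788 CPM in MD+CA, 189 to 320 CPM in MD and 238 to 300 CPM in CD libraries. Of 7 tested immediate early genes 6 were called lower in MD+CA than in MD, with a sum over the 8 listed of 47.7 to 98.2 CPM in MD+CA, 151 to 1502 CPM in MD and 38.7 to 207 CPM in CD. Of 10 tested integrated stress response targets 2 were called higher in MD+CA than in MD, with a sum over the 13 listed of 830 to 1512 CPM in MD+CA, 663 to 852 CPM in MD and 772 to 994 CPM in CD, so that the MD+CA and MD sums overlapped. Of the same 10 targets 6 had a positive and 4 a negative log2 fold change, with a median of 0.16. By unadjusted p under 0.05, 3 of these targets were higher and 1 was lower, against 23.2% of all genes in either direction. The libraries did not overlap for 2 targets that were higher and 1 that was lower, against 10.2% of all genes. Asns, Slc7a11 and Stc2 stayed under 1 CPM in every library. None of 8 hepatocyte, 8 pericentral and 8 periportal markers was called by edgeR in MD+CA against MD. At an unadjusted p under 0.05 the hepatocyte list had 1 higher, the pericentral list 1 lower and the periportal list 1 of each. The share of all genes at this threshold was 23.2% in either direction. All 8 pericentral markers had a negative log2 fold change, with a median of -0.19, beside 6852 of all 13631 genes with a negative one. The hepatocyte and the periportal lists each had 5 positive and 3 negative. The part of these differences in the Cbs result was not tested. In bulk tissue, fewer cells of a type and less RNA per cell cannot be told apart.

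Cth encodes cystathionine gamma-lyase, which releases cysteine from the product of Cbs. It had 390, 278, 374 and 290 CPM in MD+CA libraries, 303, 165, 356 and 210 CPM in MD libraries and 215, 233, 247 and 254 CPM in CD libraries. MD+CA libraries all lay above the CD libraries and overlapped those of MD, where MD library 2 was lowest. The log2 fold change was 0.36 ± 0.24 in MD+CA against MD (adjusted p = 0.382), 0.13 ± 0.24 in MD against CD (0.794) and 0.49 ± 0.24 in MD+CA against CD (0.524), and the second was -0.073 without MD library 3. Cbs and Cth were among the 5 of 9 tested enzyme genes with a positive difference in MD+CA against MD. Over all genes 6779 of 13631 had a positive one, so the shared sign does not set this pair apart. Only the difference of Cbs passed the test.

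**Figure D3:**
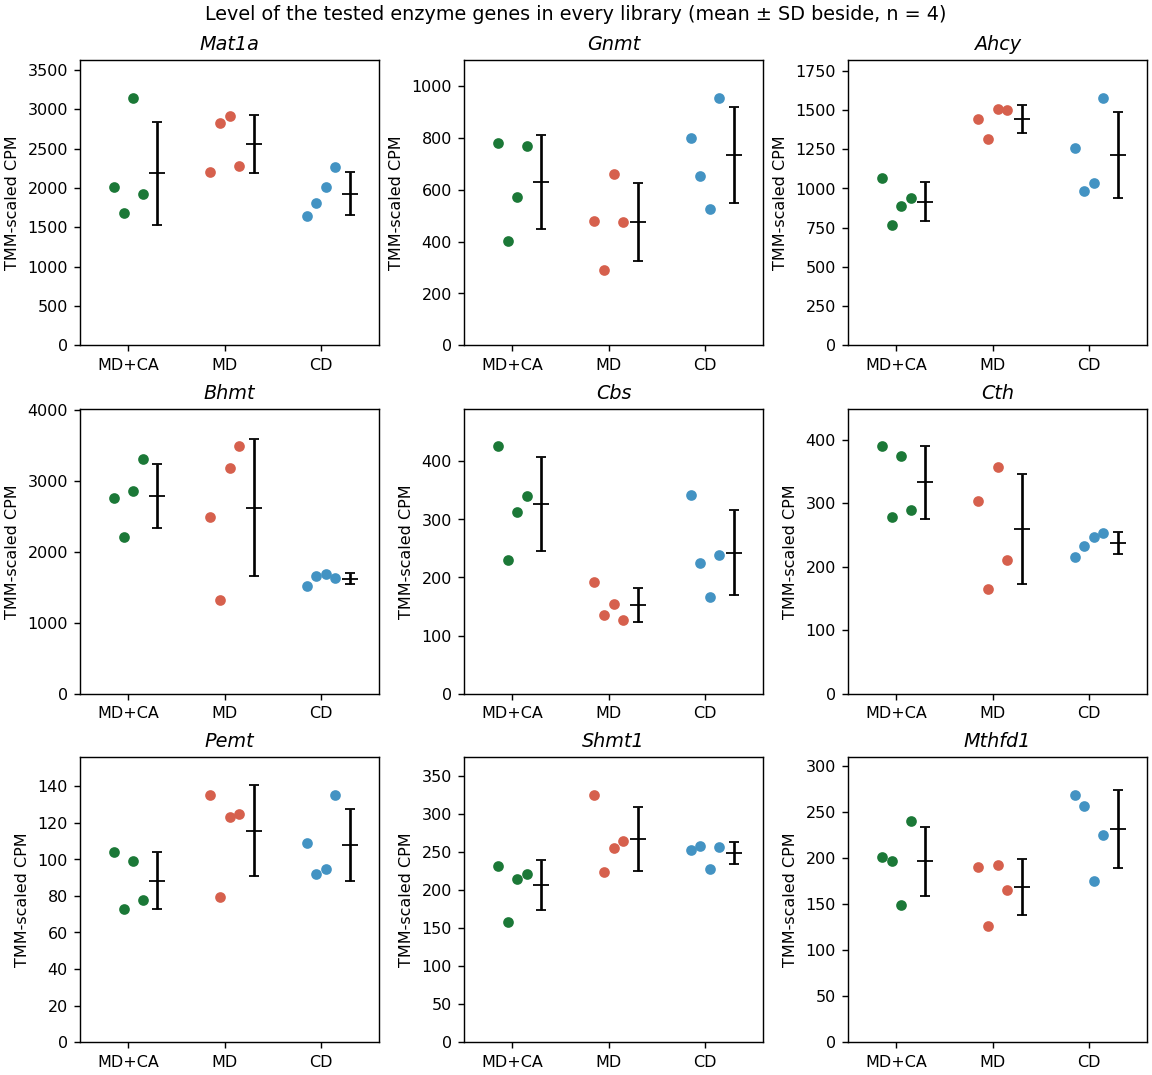
TMM-scaled CPM of the 9 tested enzyme genes in each library (points) with the group mean and SD beside them (n = 4), MD+CA left, MD in the middle and CD right. The groups MD+CA and MD are fully apart for Cbs (229 to 426 against 127 to 192 CPM) and Ahcy (765 to 1067 against 1317 to 1505 CPM).

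Cbs reads were spread over several annotated transcripts, and this distribution differed between libraries. The coding transcripts Cbs-201 and Cbs-202 (2533 and 2403 bases) carried most Cbs reads, 35.8 and 43.6% over the 12 libraries. The transcripts Cbs-210 and Cbs-207 are annotated as retained introns and code for no protein. They carried together 10.15, 4.82, 8.76 and 1.98% of Cbs reads in MD+CA libraries, 36.9, 52.6, 5.58 and 15.8% in MD libraries and 4.60, 4.26, 7.12 and 4.88% in CD libraries. MD libraries 1 and 2 stood far above the other 10, and MD library 3 lay within the range of the other groups. In the same libraries 1 and 2 of MD, Cbs-202 carried 8.37 and 0% of Cbs reads, against 38.7 to 53.0% in the other 10. All transcript shares, here and below, rest on estimated counts. How reads were divided between the transcripts of a gene could not be checked here.

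Counting only protein-coding transcripts therefore lowered Cbs in MD libraries 1 and 2. Its level was then 452, 250, 326 and 364 CPM in MD+CA, 146, 83.4, 167 and 124 CPM in MD and 375, 245, 175 and 258 CPM in CD libraries, scaled on coding reads. The groups MD+CA and MD again did not overlap, and the log2 fold change was 1.42 ± 0.28 (edgeR, adjusted p = 0.0298). In MD against CD it was -1.02 (adjusted p = 0.0844). This count was chosen after the transcript shares were seen and rests on the same estimates.

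In MD libraries the retained-intron shares of Gnmt and Bhmt were lower percentages than that of Cbs, but their medians were also highest in MD. For Bhmt the median was 0.684% in MD+CA, 3.62% in MD and 0.623% in CD. Pooled over all 10 enzymes, the share was 0.572 to 1.015% in MD+CA, 1.63 to 2.69% in MD and 0.673 to 0.920% in CD. The pooled MD libraries thus lay above all others, which was not tested. Gnmt had 1.35, 1.13, 1.34 and 0.627% in MD+CA libraries, 4.87, 15.6, 1.30 and 1.81% in MD libraries and 0.892, 0.319, 0.799 and 1.29% in CD libraries. MD libraries 1 and 2 were again the highest. For Bhmt the share was 0.600 to 0.771% in MD+CA, 1.42 to 3.78% in MD and 0.209 to 1.93% in CD, and here MD library 1 was the lowest of its group. Ahcy, Cth and Mthfd1 had under 1% in every library, and Shmt1 had 1.87 to 4.94% in MD+CA, 3.23 to 4.23% in MD and 3.79 to 8.87% in CD, highest in a CD library. Over all other genes pooled the share was 2.80 to 3.93% in MD+CA, 3.27 to 5.33% in MD and 3.19 to 3.67% in CD, highest in MD library 2. MD library 2 also had the highest mitochondrial share, 17.5%, and the shortest fragment length allowance (transcript length minus effective length), 221 bases, and MD library 1 the second highest mitochondrial share, 10.7%, with an allowance of 230 bases. Their part in the transcript shares was not tested.

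**Figure D4:**
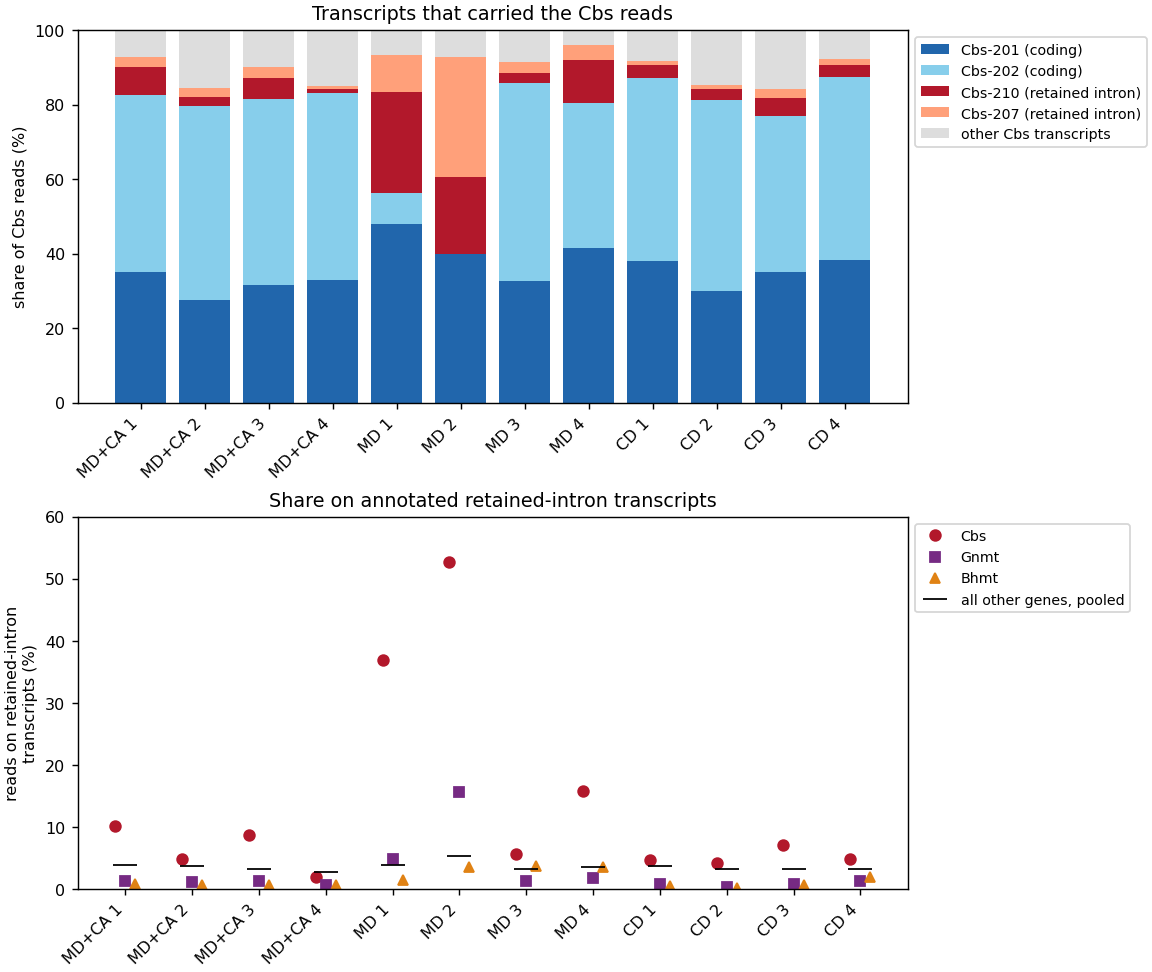
Top, share of Cbs reads (%) on each annotated transcript in every library, MD+CA left, MD in the middle and CD right. Bottom, share of reads (%) on retained-intron transcripts for Cbs, Gnmt and Bhmt, with all other genes pooled as a line. MD libraries 1 and 2 reach 36.9 and 52.6% for Cbs, against at most 15.8% in the other 10.

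Transcript shares of the other enzymes also varied by library. Mat1a reads lay almost wholly on Mat1a-203, except in CD library 1, MD+CA library 1 and CD library 4, where Mat1a-201 took 34.7, 29.0 and 13.1%. Cth-203, a short transcript without a defined coding sequence (675 bases), took 25.7% in MD+CA library 1, 26.3% in MD library 1 and 26.5% in MD library 2, against 6.16 to 19.7% in the other 9. These 3 libraries had the shortest fragment length allowances, 227, 230 and 221 bases, against 246 to 280 bases in the others. Mthfd1 reads were divided between the coding transcripts Mthfd1-206 and Mthfd1-201, and Mthfd1-201 took 9.55 to 61.2% in MD+CA, 11.3 to 34.3% in MD and 20.4 to 34.4% in CD. Ahcy-201 and Gnmt-201 carried 99.9 and 97.3% of the reads of their genes over the 12 libraries.

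Pemt encodes phosphatidylethanolamine N-methyltransferase, which makes phosphatidylcholine from phosphatidylethanolamine with SAM. It had 103.9, 72.7, 99.2 and 77.9 CPM in MD+CA libraries, 135, 79.3, 123 and 125 CPM in MD libraries and 109, 91.98, 94.8 and 135 CPM in CD libraries. MD+CA and MD overlapped only through MD library 2, which lay below the other 3 MD libraries, and both groups overlapped CD. The log2 fold change was -0.39 ± 0.22 in MD+CA against MD (adjusted p = 0.296), 0.10 ± 0.22 in MD against CD (0.815) and -0.28 ± 0.22 in MD+CA against CD (0.773).

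In the folate cycle, Shmt1 encodes the cytosolic serine hydroxymethyltransferase and Mthfd1 the cytosolic enzyme that interconverts folates carrying single carbons. Shmt1 had 231, 158, 214 and 221 CPM in MD+CA libraries, 325, 224, 255 and 265 CPM in MD libraries and 252, 258, 227 and 257 CPM in CD libraries. The MD+CA group was the lowest on average, 206 ± 32.9 CPM, against 267 ± 42.4 CPM in MD and 249 ± 14.3 CPM in CD (SD, n = 4 each), but MD+CA library 1 lay above the lowest library of both other groups. Shmt1 had a log2 fold change of -0.38 ± 0.19 in MD+CA against MD (adjusted p = 0.260), 0.10 ± 0.19 in MD against CD (0.790) and -0.27 ± 0.19 in MD+CA against CD (0.744), and the second was -0.0056 without MD library 1. Mthfd1 had 201, 196, 149 and 240 CPM in MD+CA libraries, 190, 127, 192 and 165 CPM in MD libraries and 269, 257, 175 and 225 CPM in CD libraries. Here the MD group was the lowest on average and overlapped both others. Its log2 fold change was 0.22 ± 0.22 in MD+CA against MD (adjusted p = 0.568), -0.46 ± 0.22 in MD against CD (0.260) and -0.24 ± 0.22 in MD+CA against CD (0.832).

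Phgdh encodes phosphoglycerate dehydrogenase, the first enzyme of serine synthesis from glucose. It was barely detected and was not tested in the main model. Its reads numbered 1, 3, 0 and 12 in MD+CA libraries, 0, 0, 5 and 1 in MD libraries and 1, 3, 2 and 5 in CD libraries. Apart from MD+CA library 4 no library had more than 5 reads, close to the limit of 3 that a count of 0 allows, so no difference between groups was detectable at this depth. Psat1, which follows Phgdh in serine synthesis, also failed the filter, with 0.127 to 1.12 CPM in MD+CA, 0 to 0.557 CPM in MD and 0 to 0.626 CPM in CD. Psph, which completes it, was tested and averaged 9.59 ± 3.36 CPM in MD+CA, 7.70 ± 0.89 CPM in MD and 9.20 ± 2.90 CPM in CD (SD, n = 4 each), with no call in any comparison (adjusted p between 0.529 and 0.984).

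The balance of enzymes that share a substrate or product was read as a ratio of TPM within a library, which does not depend on the scaling between libraries. Mat2a, the form of methionine adenosyltransferase of most other tissues, Mtr, the folate-dependent methionine synthase, Pcyt1a, which controls the choline route to phosphatidylcholine, and Shmt2, the mitochondrial serine hydroxymethyltransferase, served as partners. None of these 4 partner genes passed the edgeR test in any comparison, with adjusted p between 0.342 and 0.983. Of 12 tests (4 ratios by 3 comparisons, exact two-sided permutation tests), none passed after adjustment over the 12 and the smallest adjusted p was 0.171. The smallest p that this permutation test can give is 0.0286. A single ratio with full separation of the groups could therefore not pass the adjustment. The lack of a pass does not show that the ratios were unchanged.

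Mat1a exceeded Mat2a by a median of 36.0-fold in MD+CA, 39.7-fold in MD and 32.4-fold in CD libraries. Bhmt exceeded Mtr by 722, 547, 826 and 524-fold in MD+CA, 533, 369, 628 and 808-fold in MD and 296, 291, 436 and 395-fold in CD libraries. All MD+CA libraries lay above all CD libraries, with a mean log2 difference of 0.88 (p = 0.0286, the smallest that 4 against 4 libraries can give in this exact permutation test, adjusted p = 0.171). Pemt exceeded Pcyt1a by 16.9, 9.68, 12.3 and 5.48-fold in MD+CA, 23.4, 21.6, 15.1 and 15.9-fold in MD and 12.2, 7.78, 10.6 and 16.7-fold in CD libraries. MD lay highest, by a log2 difference of -0.86 for MD+CA minus MD and 0.71 for MD minus CD, and overlapped both (exact permutation p = 0.0857 each, adjusted p = 0.171). The ratio of Shmt1 to Shmt2 had a median of 1.63 in MD+CA, 1.78 in MD and 2.05 in CD. It was lower in all MD+CA than in all CD libraries, with a log2 difference of -0.35 (exact permutation p = 0.0286, adjusted p = 0.171).

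**Figure D5:**
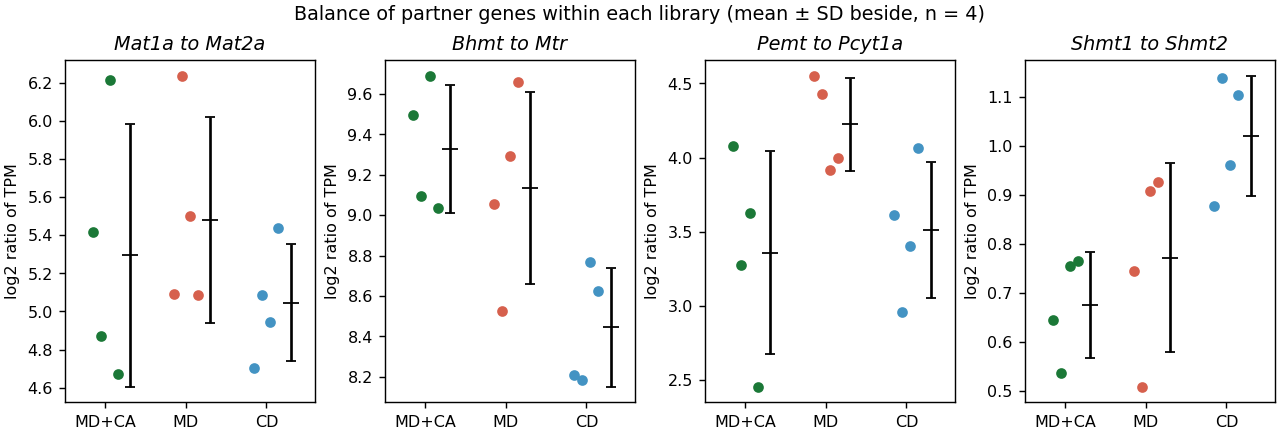
Log2 ratio of TPM between partner genes within each library (points) with the group mean and SD beside them (n = 4), MD+CA left, MD in the middle and CD right, on axes that do not start at 0. The Bhmt to Mtr ratios of MD+CA lie above those of CD, and the Shmt1 to Shmt2 ratios of MD+CA below them.

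The wider pathways were read in 7 lists of 91 other genes, of which 86 were tested. No listed gene passed in MD against CD, where 0.0880% of all genes did. At an unadjusted p under 0.05, edgeR gave 11 of the 86 higher and 8 lower in that comparison, against 19.9% of all genes in either direction. In MD+CA against MD 2 of the 86 rose and 1 fell, against 2.71% of all genes called in either direction. Both counts lie near the shares of all genes and do not set the listed genes apart. The median log2 fold change of the 86 was -0.02 in MD+CA against MD, 0.0067 in MD against CD and -0.02 in MD+CA against CD.

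Gldc, the decarboxylating subunit of the glycine cleavage system that feeds single carbons to folate, rose most clearly. It had 122, 97.2, 79.8 and 159 CPM in MD+CA libraries, 56.2, 27.0, 46.6 and 43.4 CPM in MD libraries and 96.6, 73.5, 55.7 and 53.6 CPM in CD libraries. Every MD+CA library lay above every MD library, and CD lay between with overlap. The log2 fold change in MD+CA against MD was 1.40 ± 0.28 (edgeR, adjusted p = 0.0198), and the call held in 24 of 25 alternatives, all 12 fits that left out 1 library among them. It was lost without the least correlated library of each group (log2 fold change 1.37, adjusted p = 0.0544). It was the only 1 of 13 tested genes of the serine and glycine list that passed.

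In the list of phosphatidylcholine and phosphatidylethanolamine synthesis, Selenoi rose and Chkb fell in MD+CA against MD, out of 13 tested genes. Selenoi, an ethanolamine phosphotransferase, had 48.3, 39.0, 36.5 and 58.2 CPM in MD+CA libraries, against 28.7, 27.8, 27.0 and 26.1 CPM in MD libraries (log2 fold change 0.73 ± 0.19, edgeR adjusted p = 0.0497). Its groups did not overlap, but its p sat at the threshold and the call was lost without any 1 of the 12 libraries (adjusted p between 0.0529 and 0.112) and held in 4 of 25 alternatives. Chkb, the beta form of choline kinase, had 50.2, 34.2, 36.3 and 33.7 CPM in MD+CA libraries, against 79.8, 155, 54.1 and 64.3 CPM in MD libraries (log2 fold change -1.19 ± 0.29, edgeR adjusted p = 0.0443). MD library 2 was far above the rest, and without it the difference was -0.77 (adjusted p = 0.0901). The Chkb call was also lost without any CD library, MD libraries 1 or 4, or MD+CA libraries 2, 3 or 4 (adjusted p between 0.0522 and 0.119), and with protein-coding transcripts alone the difference was -0.49 (adjusted p = 0.291). With the fragment length as a covariate it was -0.73 (adjusted p = 0.187), and the call held in 9 of 25 alternatives. Against CD, the log2 fold change of Selenoi was -0.48 in MD (edgeR, adjusted p = 0.185) and 0.25 in MD+CA (0.748). That of Chkb against CD was 1.12 in MD (edgeR, adjusted p = 0.113) and -0.07 in MD+CA (0.981). For both genes the MD and CD libraries did not overlap, while those of MD+CA and CD did. Between MD and CD the libraries of 13.1% of all genes did not overlap. The same held for 7 higher and 4 lower of the 86 tested genes in these lists.

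Nnmt, a methyltransferase that spends SAM on nicotinamide, did not pass, with 194, 56.1, 267 and 72.9 CPM in MD+CA libraries, 143, 119, 109 and 107.2 CPM in MD libraries and 63.4, 31.5, 27.9 and 70.2 CPM in CD libraries. Its MD libraries all lay above CD while its MD+CA libraries spread from within the CD range to above the MD range, with log2 fold changes of 0.30 in MD+CA against MD (adjusted p = 0.697), 1.31 in MD against CD (0.138) and 1.61 in MD+CA against CD (0.117).

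The enzymes did not vary as 1 block across the 12 libraries. The values below are Pearson r of log2 CPM over 12 libraries, given as a description, since the libraries share their scaling and fall into 3 groups. Among the 36 pairs, r was highest between Ahcy and Pemt (0.80), Pemt and Shmt1 (0.79), Ahcy and Shmt1 (0.76) and Gnmt and Mthfd1 (0.75), and lowest between Mat1a and Mthfd1 (-0.73). Cbs was nearest to Gnmt (0.64) and farthest from Ahcy (-0.47), and Bhmt was nearest to Cth (0.64).

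Of the enzymes tested, Cbs had the smallest p in an edgeR test of any difference among the 3 groups (adjusted p = 0.0688). Of 10577 protein-coding genes outside these lists, those most like it across the 12 libraries were Coq8a (r = 0.92), a kinase-like protein of coenzyme Q synthesis, Mocos (0.90), the molybdenum cofactor sulfurase, Hspa5 (0.90), a chaperone of the endoplasmic reticulum, Fgfr4 (0.89), a fibroblast growth factor receptor, and Abtb2 (0.88). All 5 had the order of group means seen for Cbs, highest in MD+CA and lowest in MD. Their choice by correlation with Cbs over these same libraries favours that order, so it is no separate result. Hspa5 averaged 1596 CPM in MD+CA, 714 CPM in MD and 968 CPM in CD, and Coq8a 220 CPM in MD+CA, 130.02 CPM in MD and 194 CPM in CD.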

How the data were processed

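RNA from snap-frozen liver was sequenced in 12 libraries, made by poly(A) selection from 500 ng of RNA, per the labels' protocols. fastp, Salmon 1.10.3, DESeq2 and the build GRCm39 are named in the submitters' processing notes, with options not given in the sources used here. The authors deposited, for each library, estimated counts (expected reads per transcript, not normalized), TPM scaled within the library for length and depth, and effective lengths, per the file headers.

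Estimated counts were added up for each gene and rounded. TPM served for levels and ratios between genes, and effective lengths for an offset and the fragment length allowance (median length minus effective length of long transcripts). After edgeR's filterByExpr (minimum count 10), 13631 of 56065 genes were tested with the quasi-likelihood test of edgeR 4.0.16, in 1 model of all 12 libraries without covariates (TMM factors, common biological coefficient of variation 0.308, 9 residual degrees of freedom). P was adjusted over all 13631 genes by Benjamini-Hochberg, and the threshold was 0.05. The SE is the log2 fold change over the square root of F. Ratios were tested by exact two-sided permutation over libraries. Steps were tested on simulated counts. R 4.3.3, limma 3.58.1, DESeq2 1.42.0 and Python 3.11.15 were used.

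The enzymes and lists were chosen with earlier results of these data known. Named are all 10 enzymes, listed pathway genes past the threshold (a result that this rule takes is not reported here), Mat2a, Mtr, Pcyt1a, Shmt2, Psat1, Psph and Nnmt in any case, and the 5 genes most correlated with the enzyme of smallest p. Copies of Ahcy and Bhmt were named after their values were seen. Alternatives were DESeq2, limma voom with sample weights, scaling by RLE or upper quartile, no low-count filter, a transcript length offset, protein-coding genes only, no mitochondrial and ribosomal RNA genes, only both compared groups, a fragment length covariate, the replicate number as a block and leaving out each library. Added after seeing the data were protein-coding transcripts only and leaving out the least correlated library of each group.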

Additional observations from a re-analysis of the deposited data

Results flagged for a closer look

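The share of Bhmt reads on retained-intron transcripts in MD library 1, 1.415%, lay apart from the other 3 MD libraries, at 3.60 to 3.78%. It was the only such library among 36 groups of 4 libraries examined for the enzymes' levels and shares, and chance alone sets apart about 1 in 20 groups. With this library the MD range of 1.42 to 3.78% reaches into the CD range of 0.209 to 1.93% and stays above the MD+CA range of 0.600 to 0.771%.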

How the results depend on the processing

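The Cbs call in MD+CA against MD held in 15 of 25 alternatives, with a log2 fold change of 0.95 to 1.42 (adjusted p between 8.38e-04 and 0.123). Enzyme genes called there numbered 1, against 2 with DESeq2, 0 with the transcript length offset (Cbs adjusted p = 0.0634), 0 in a model of only both groups (0.0687), 0 without the least correlated library of each group, and 0 to 1 without 1 library. In MD against CD limma voom called 1 enzyme gene, and no other alternative called any, nor did any in MD+CA against CD. The labels do not say that a replicate number marks a shared animal, litter or day, and same-numbered deviations correlated between -0.079 and 0.35, not over 0.1 in every pair, so the libraries were not treated as paired. Yet only 1 of the 12 correlations was negative, and 5 or 6 of the 8 libraries of each comparison correlated best with their own number, a hint from the data of shared variation. With the replicate block Cbs stayed past the threshold (adjusted p = 0.0164) as the only enzyme gene called.

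Counts of all genes called depended on the settings, and the cause was not tested. In MD against CD the count was 12, against 629 with DESeq2, 374 with limma voom, 481 without the low-count filter, 2 with the length offset, 35 in a model of only both groups, 6 with the fragment length covariate, 1 with protein-coding transcripts, and 0 (without CD 1 or CD 2) to 26 (without MD 3) without 1 library. In MD+CA against MD it was 369, against 1214 with DESeq2, 1017 without the filter, 197 with the length offset, 99 in a model of only both groups, 664 with the replicate block, 142 with the fragment length covariate, 47 without the least correlated libraries, 237 with protein-coding transcripts, and 109 (without MD 1) to 963 (without MD 3) without 1 library. In MD+CA against CD it was 72, against 334 with DESeq2, 191 with limma voom, 390 without the filter, 34 with the length offset, 121 with protein-coding genes only, 46 in a model of only both groups, 154 with the replicate block, 164 with the fragment length covariate, 41 without the least correlated libraries, 38 with protein-coding transcripts, and 17 (without CD 4) to 169 (without MD+CA 4) without 1 library.

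Some small differences changed sign. In MD against CD, leaving out 1 library put Cth between -0.073 (without MD 3) and 0.29 and Shmt1 between -0.0056 (without MD 1) and 0.18. In MD+CA against MD, Bhmt lay between -0.13 (without MD 2) and 0.26, and at -0.14 with limma voom, -0.055 with the fragment length covariate and -0.15 without the least correlated libraries. In MD+CA against CD, Mat1a lay between -0.061 (without MD+CA 3) and 0.29, and at -0.040 without the least correlated libraries. Log2 ratios without 1 library lay, for Mat1a to Mat2a, between -0.49 and 0.068 in MD+CA against MD (0.023 without MD+CA 4, 0.068 without MD 2) and between -0.057 (without MD+CA 3) and 0.46 in MD+CA against CD. For Bhmt to Mtr in MD+CA against MD they lay between -0.0082 (without MD 2) and 0.37, and for Pemt to Pcyt1a in MD+CA against CD between -0.39 and 0.15 (without MD+CA 4; 0.034 without CD 4). Leaving out the libraries that stood apart in an earlier analysis was planned and not run, since they are not known here. Depth limited Phgdh, which entered a test only in the alternative without the low-count filter. Without 1 library the smallest p of a ratio test is 0.0571.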
